A study of Mus musculus with 29 samples.

Results

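The genes examined were 7 surface receptors of multipotent progenitors, *Flt3*, *Cd34*, *Ly6a*, *Ly6e*, *Cd48*, *Procr* and *Epcam*. They were chosen by name, and each symbol matched 1 of the 24732 entries in the tables aligned to mm9 and 1 of the 25588 entries in the tables aligned to mm10. The study asked how the PAX5-JAK2 fusion protein causes B cell acute lymphoblastic leukaemia, and it used wild-type and Pax5-deficient pro-B cells to define the genes that Pax5 regulates. RNA-seq tables of 8 of the 29 samples of the series were used. They hold 3 libraries of wild-type (Pax5+/+) and 2 libraries of Pax5-/- pro-B cells, and 3 libraries of Pax5+/+ Meox2-cre pro-B cells, in which Cre recombinase is expressed ubiquitously from the *Meox2* locus. All cells were sorted from bone marrow of mice labelled C57BL/6. The Meox2-Cre mice were 3 weeks old and their libraries are labelled as pooled, whereas an age for the other mice was not found in the sources used here. The sample labels name the Meox2-Cre mice Pax5+/+, but the sample list of the study names them Pax5+/-. Nothing in the labels says that the libraries of a genotype came from separate mice, so the p-values measure only the spread between these libraries.

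The gates of the sorts differed between the genotypes. Wild-type pro-B cells were gated, among other markers, as B220+ Kit+ CD2- IgM- IgD- cells, whereas the gate of the Pax5-deficient progenitors included B220+ Kit+ Ly6D+, and thus genotype and gate cannot be told apart in what follows. *Pax5* itself was measured at 342, 386 and 391 TPM in the wild-type libraries and at 43 and 39.1 TPM in Pax5-/- libraries (log2 fold change −3.17, adjusted p = 3.1e-06 from limma). TPM is a transcript level per length that sums to 1000000 in each library, so the depth in reads is unknown and no counting interval can be given. Of the 15 pro-B markers examined, 15 exceeded 1 TPM in a library of each group, and 6 of them, with *Cd79a* and *Blnk* among them, were called lower in the Pax5-/- cells. All values are of bulk RNA, in which fewer cells of a type and less RNA per cell cannot be told apart.

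As background, these receptors were grouped as surface receptors of multipotent progenitors, but not all of them are particular to such cells. FLT3 is the receptor tyrosine kinase for FLT3 ligand and is needed for an efficient lymphoid output of multipotent and common lymphoid progenitors, and it is normally switched off when B cell precursors commit to their lineage. CD34 is a sialomucin of progenitors and endothelium, LY6A (Sca-1) is the GPI-anchored protein by which mouse stem cells are sorted, LY6E is a broadly expressed relative of LY6A, CD48 is a GPI-anchored SLAM family ligand of CD2 and CD244, PROCR (EPCR) is the endothelial protein C receptor, found on quiescent stem cells, and EPCAM is a homophilic adhesion molecule best known from epithelia.

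The genes are spread over 5 chromosomes in the mm9 annotation of GENCODE. *Flt3* lies on the minus strand at chr5:148142317-148212065 and overlaps the lincRNA gene Gm17398 on the opposite strand. *Cd34* (plus strand, chr1:196765015-196787486) overlaps the antisense lincRNA gene Gm16897. *Cd48* is found on the same chromosome at chr1:173612140-173635389, *Procr* at chr2:155576853-155581207 and *Epcam* at chr17:88035319-88050446, all on the plus strand. The related genes *Ly6e* (chr15:74785481-74790335, plus strand) and *Ly6a* (chr15:74825308-74828064, minus strand) belong to the same *Ly6* cluster. The reads were counted without regard to strand, so reads of *Flt3* and *Cd34* cannot be separated from those of their antisense partners. Any reads that match both *Ly6a* and a close relative such as *Ly6c1* or *Ly6i* cannot be assigned to either gene.

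The promoters of *Flt3* and *Epcam* are shown because these genes differed most between the genotypes, and that of *Cd48* because it is the expressed member whose level differed least. The sequences are from RefSeq on GRCm38.p6 and run 5′ to 3′ from 250 bases before to 50 bases after the annotated start, and 5 of the 7 genes had an entry. Capitals mark matches to any of 5 searched motifs.
Flt3 (chr5:147400440-147400739, minus strand): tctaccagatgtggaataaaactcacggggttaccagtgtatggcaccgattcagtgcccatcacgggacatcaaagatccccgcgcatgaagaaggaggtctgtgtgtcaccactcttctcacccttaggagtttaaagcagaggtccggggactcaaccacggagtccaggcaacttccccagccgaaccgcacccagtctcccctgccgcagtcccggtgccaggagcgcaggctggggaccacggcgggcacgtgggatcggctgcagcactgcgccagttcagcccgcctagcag
Epcam (chr17:87635729-87636028, plus strand): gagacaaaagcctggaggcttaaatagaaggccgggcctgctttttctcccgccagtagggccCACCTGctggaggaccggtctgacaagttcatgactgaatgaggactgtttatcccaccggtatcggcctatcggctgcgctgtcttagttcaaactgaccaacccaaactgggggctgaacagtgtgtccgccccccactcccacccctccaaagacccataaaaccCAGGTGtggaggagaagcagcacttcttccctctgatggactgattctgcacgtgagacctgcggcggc
Cd48 (chr1:171681742-171682041, plus strand): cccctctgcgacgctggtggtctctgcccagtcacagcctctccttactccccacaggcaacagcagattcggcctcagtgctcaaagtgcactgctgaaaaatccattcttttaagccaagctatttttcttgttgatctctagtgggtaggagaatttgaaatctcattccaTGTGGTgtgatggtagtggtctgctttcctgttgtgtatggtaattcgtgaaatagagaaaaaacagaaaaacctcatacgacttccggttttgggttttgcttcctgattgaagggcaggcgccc
The motifs were searched on both strands. The core GCGTGAC of Pax5 sites is present in 2.09% of the 32851 promoters of the table, the paired half-sites CCCNNGGG of Ebf1 in 13.7%, the E protein motif CACCTG in 20.2%, the Runx motif TGTGGT in 16.8% and the STAT motif TTCNNNGAA in 8.3%. The *Epcam* promoter holds the E protein motif at −187 to −182 and, on the reverse strand, at −19 to −14 relative to the start, and the *Cd48* promoter holds the Runx motif at −76 to −71. The windows of *Flt3*, *Cd34* and *Procr* hold none of the 5 motifs. These are matches of letters only and do not show binding. The matched stretches of *Epcam* and *Cd48* do not overlap any other searched motif.

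The levels of the 7 genes covered a wide range within each library, as shown in the plot of levels by library. In wild-type cells, *Ly6e* was highest at 2053 ± 236 TPM (SD, n = 3), followed by *Cd48* at 84.6 ± 7.23 TPM, *Flt3* at 15.0 ± 3.55 TPM, *Ly6a* at 7.42 ± 2.39 TPM, *Epcam* at 2.07 ± 0.615 TPM and *Cd34* at 0.787 ± 0.638 TPM (SD, n = 3 for each), while *Procr* was listed at 0 in the 3 libraries. Neighbours in this order did not overlap, although *Epcam* and *Cd34* came close, with a lowest value of 1.48 TPM for *Epcam* and a highest value of 1.42 TPM for *Cd34*. In Pax5-/- cells, *Flt3* lay between *Ly6e* and *Cd48*, and *Epcam* was above *Ly6a*. The difference between *Epcam* and *Ly6a* in these cells was smaller than the SD of *Epcam*, whereas the other neighbours were further apart than their SDs.

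**Figure D1:**
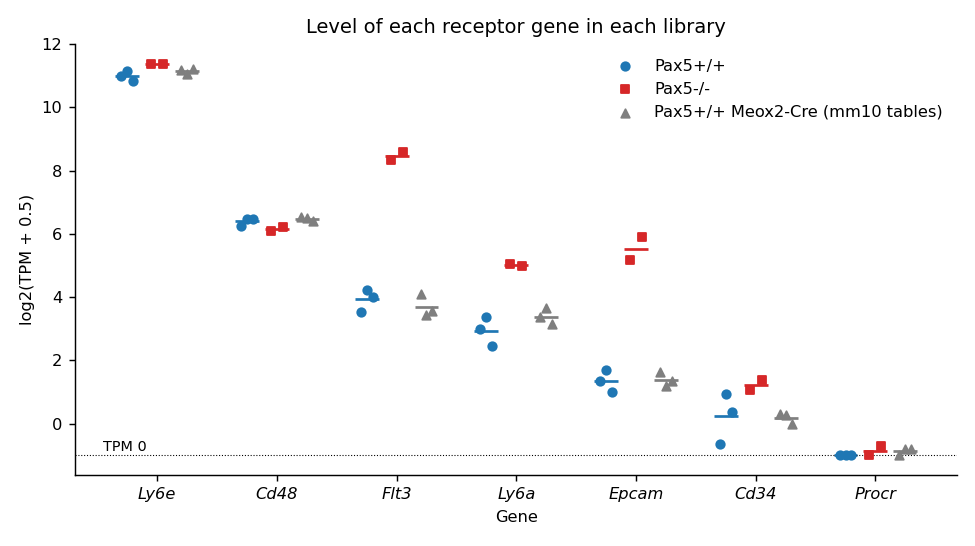
Level of each receptor gene in each library as log2(TPM + 0.5), with horizontal bars for group means; circles are 3 Pax5+/+, squares 2 Pax5-/- and triangles 3 Pax5+/+ Meox2-Cre libraries, the last from tables of another genome build. *Flt3*, *Epcam* and *Ly6a* lie far above both control groups in the Pax5-/- libraries. For *Ly6e*, and likewise for *Cd48*, the groups lie close to one another, and *Cd34* and *Procr* lie near the bottom.

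To ask which of the receptors differ upon loss of Pax5, the Pax5-/- libraries were compared with the wild-type libraries by limma on log2(TPM + 0.5), where the added 0.5 makes the changes of low genes too small. Of the 7 genes, 6 had a mean above 1 TPM in a genotype and were tested, and *Procr* did not pass this filter. A call required an adjusted p-value below 0.05 together with a change above 3-fold and a mean above 5 TPM in a genotype. By this rule, *Flt3*, *Epcam* and *Ly6a* were called higher, 3 of 6 genes, against 2.71% of all 12066 entries tested, and 0 were called lower, against 3.15% of all entries. The adjusted p-value alone was below 0.05 for 4 higher genes (15.6% of all entries) and 0 lower genes (21.5% of all entries), and the unadjusted p-value was below 0.05 for 0 lower genes. In 5 of the 6 genes both Pax5-/- libraries lay above every wild-type library, as in 26.1% of all entries, and in 1 gene, *Cd48*, they lay below, as in 37.4%. The smallest p-value that an exact permutation test of 3 against 2 libraries can give is 0.1, so the tests rest on the spread pooled across genes. The median log2 fold change of all entries was −0.12, and the changes below are to be read against it.

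**Figure D2:**
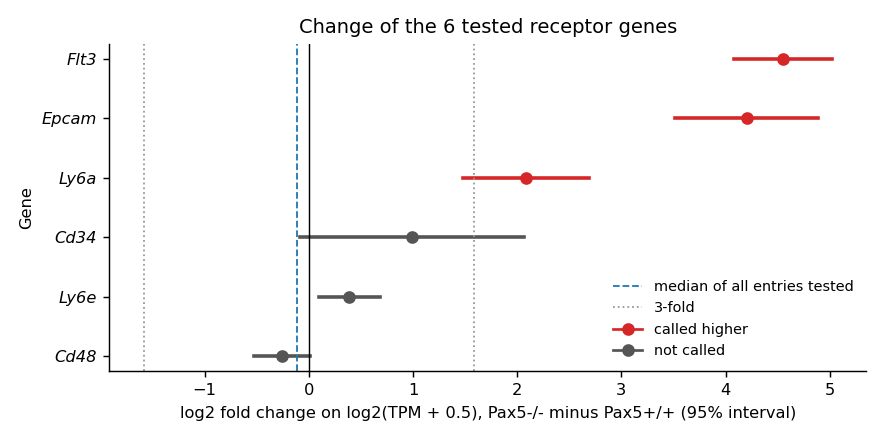
Log2 fold change on the log2(TPM + 0.5) scale between Pax5-/- and Pax5+/+ libraries (points) with its 95% interval (lines) for the 6 tested receptor genes; red marks genes called higher, the dashed line the median of all 12066 entries and dotted lines a change of 3-fold. The intervals of *Flt3* (4.08 to 5.02) and *Epcam* (3.52 to 4.89) lie beyond the 3-fold line, whereas that of *Ly6a* (1.48 to 2.69) crosses it.

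*Flt3* was measured at 11.1, 18.1 and 15.7 TPM in the wild-type libraries and at 327 and 388 TPM in Pax5-/- libraries. The lowest Pax5-/- value was thus far above the highest wild-type value. The ratio of the means was 23.8 and the log2 fold change 4.55 (SE 0.20, adjusted p = 9.3e-06 from limma). Among the 24732 entries of a library, *Flt3* held ranks 7596, 6678 and 7318 in wild-type and ranks 510 and 396 in Pax5-/- cells. *Flt3l*, which encodes the ligand, was at 8.60, 7.39 and 8.20 TPM in wild-type and at 10.5 and 12.0 TPM in Pax5-/- libraries (log2 fold change 0.46, adjusted p = 0.077). Of 26 tested genes of FLT3 signalling, 2 rose and 6 fell at an adjusted p-value below 0.05, 18 did not pass, and 0 were called in either direction, with a median log2 fold change of −0.16. The genes that rose were *Pik3r1*, the regulatory subunit of PI3 kinase (log2 fold change 1.5, adjusted p = 0.00058), and *Socs2*, a feedback inhibitor of cytokine receptors (1.09, adjusted p = 0.002). Among those that fell were *Gab1*, an adaptor of receptor kinases (−1.39, adjusted p = 0.0071), and *Lyn*, a Src family kinase (−1.26, adjusted p = 0.00026). These 4 genes were named after their values were seen. Of all 12066 entries tested, 15.6% rose and 21.5% fell at an adjusted p-value below 0.05. By the rule for calls, 2.71% were higher and 3.15% lower. The list counts here and below are to be read against these shares.

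*Epcam* was near the bottom of the expressed genes in wild-type cells, at 2.03, 2.71 and 1.48 TPM, and was measured at 35.6 and 59.4 TPM in Pax5-/- libraries. The groups did not overlap, but the Pax5-/- libraries differed from each other more than for any other called member, with a coefficient of variation of 35.5% against 12.2% for *Flt3* and 3.46% for *Ly6a*. The ratio of the means was 22.9 and the log2 fold change 4.2 (SE 0.29, adjusted p = 6.3e-05 from limma). The plasmacytoid dendritic cell markers *Siglech* (1.79 and 9.06 TPM), *Irf8* (40.4 and 78.4 TPM) and *Cox6a2* (20 and 41.3 TPM) were also higher in the second than in the first Pax5-/- library. Over the 10 markers of that list, the sum was 929 to 1011 TPM in wild-type and 385 to 521 TPM in Pax5-/- libraries, with 3 called higher (*Siglech*, *Cox6a2*, *Pacsin1*) and 2 lower (*Spib*, *Irf8*), and their part in the *Epcam* and *Flt3* levels was not tested. Without the second Pax5-/- library, the log2 fold change was 3.84 for *Epcam* and 4.43 for *Flt3*.

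Of the 7 epithelial markers, *Krt8*, *Krt19* and *Elf3* were among those listed at 0 in the 3 wild-type libraries, *Elf3* also in both Pax5-/- libraries, and the sum of all 7 was 3.86 to 4.34 TPM in wild-type and 2.72 to 3.18 TPM in Pax5-/- libraries, nearly all of it *Krt18*, which was at 4.25, 3.55 and 3.67 TPM and at 2.54 and 2.63 TPM. *Cldn7*, a claudin that binds EPCAM, was at 0.102 and 0.113 TPM in Pax5-/- cells. Of 13 tested genes of EPCAM partners and cleavage, 1 rose and 6 fell, with a median log2 fold change of −0.39. The 2 called lower were *Lef1*, a transcription factor that acts with β-catenin, which fell from 535 ± 57.2 TPM (SD, n = 3) in wild-type to 6.13 ± 2.13 TPM (SD, n = 2) in Pax5-/- cells, and *Cd44*, a hyaluronan receptor found in complexes with EPCAM, which fell from 29.4 ± 3.22 TPM (SD, n = 3) in wild-type to 4.09 ± 0.517 TPM (SD, n = 2) in Pax5-/- cells. The calmodulin gene *Calm2*, which lies before *Epcam* in the annotation, differed by a log2 fold change of −0.56 and passed the adjusted p-value (0.015) but not the 3-fold threshold. This neighbour, like all neighbouring genes below, was chosen after values were seen.

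*Ly6a* was measured at 7.46, 9.79 and 5.01 TPM in wild-type and at 32.8 and 31.2 TPM in Pax5-/- libraries, so that the lowest Pax5-/- value exceeded the highest wild-type value by far. The ratio of the means was 4.32 and the log2 fold change 2.08 (SE 0.26, adjusted p = 0.00092 from limma). In a limma test against a change of 3-fold (treat) rather than against no change, *Ly6a* was no longer called, whereas *Flt3* and *Epcam* were. *Ly6e* was among the most abundant transcripts of every library, at ranks between 29 and 45. Its values were 2024, 2301 and 1832 TPM in wild-type and 2682 and 2666 TPM in Pax5-/- libraries, which do not overlap. The log2 fold change was 0.39 (SE 0.12, adjusted p = 0.044 from limma), a ratio of means of 1.30 that is below the threshold for a call. This adjusted p-value did not hold when the values were rescaled by median ratios (0.0999) or quantile normalized (0.65), or when any library other than the second wild-type library was left out (0.075 to 0.25).

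The remaining genes of the *Ly6* family behaved in different ways. Of 31 listed genes, 28 were found and 10 were tested, of which 4 rose, 3 fell and 3 did not pass. *Ly6d*, called higher, is a marker of the Pax5-/- sort gate and is therefore no finding. The other gene called higher was *Ly6k*, a GPI-anchored protein known from testis, at 0.983, 1.12 and 0.317 TPM in wild-type and 9.77 and 7 TPM in Pax5-/- libraries (log2 fold change 2.81, adjusted p = 0.001). *Pinlyp*, a gene with the same protein fold, was called lower, from 7.29 ± 2.26 TPM (SD, n = 3) in wild-type to 0.158 ± 0.0641 TPM (SD, n = 2) in Pax5-/- cells. Of the direct neighbours of *Ly6a*, *Ly6c1* fell from 0.616, 1.36 and 1.26 TPM to 0 and 0.249 TPM (log2 fold change −1.33, adjusted p = 0.025), and *Ly6i* was below 1 TPM in every library. *Ly6c2*, a marker of monocytes, was at 1.58, 6.98 and 9.63 TPM in wild-type and 2.77 and 6.55 TPM in Pax5-/- libraries, which overlap (log2 fold change −0.17, adjusted p = 0.86).

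*Ly6a* and *Ly6e* are known to be induced by interferons, and the interferon-induced genes were therefore examined beside them. Of 23 tested genes, 5 rose, 0 fell and 18 did not pass, with a median log2 fold change of 0.28. The 2 called higher were *Irf7*, a transcription factor of the interferon response, at 8.11, 23.5 and 18.2 TPM in wild-type and 61.4 and 88.4 TPM in Pax5-/- libraries (log2 fold change 2.24, adjusted p = 0.0046), and *Rtp4*, at 8.05, 19.9 and 14.9 TPM and at 53.7 and 59.1 TPM (2.03, adjusted p = 0.003). Their part in the *Ly6a* and *Ly6e* levels was not tested. *Ly6a*, *Ly6e*, *Cd48* and *Ly6k* encode proteins that are held in the membrane by a GPI anchor. Of 25 tested genes of GPI anchor synthesis, 6 rose, 2 fell and 17 did not pass, with 0 called and a median log2 fold change of 0.09.

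*Cd48* was measured at 76.3, 89.1 and 88.5 TPM in wild-type and at 67.3 and 73.7 TPM in Pax5-/- libraries. Both Pax5-/- values were below every wild-type value, but the difference did not pass the test (log2 fold change −0.26, 95% interval −0.53 to 0.01, adjusted p = 0.12 from limma). The genes on either side of it encode receptors of the same SLAM family. *Slamf7* was at 121, 114 and 131 TPM in wild-type and at 7.93 and 6.88 TPM in Pax5-/- libraries (log2 fold change −3.95, adjusted p = 2.8e-06) and was called lower. *Slamf1* (CD150), which is used with CD48 to sort stem cells, was lower at 1.55, 1.06 and 1.23 TPM against 0.386 and 0.335 TPM (log2 fold change −1.04, adjusted p = 0.024), which is under the level required for a call. Of the 9 tested genes of the SLAM and CD2 family, 2 rose, 4 fell and 3 did not pass, with a median log2 fold change of −1.04. *Slamf6* was the other gene called lower, from 103 ± 8.26 TPM (SD, n = 3) in wild-type to 17.5 ± 0.689 TPM (SD, n = 2) in Pax5-/- cells.

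The known binding partners of CD48 went in opposite directions. *Cd244* (2B4), its high-affinity receptor in mice that is found on natural killer cells and progenitors, rose from 2.90, 2.78 and 4.53 TPM to 7.96 and 8.4 TPM (log2 fold change 1.18, adjusted p = 0.0092), a change of less than 3-fold. *Cd2* fell from 1.55 ± 0.531 TPM (SD, n = 3) in wild-type to 0.107 ± 0.152 TPM (SD, n = 2) in Pax5-/- cells (log2 fold change −1.75, adjusted p = 0.0066). The gate of the wild-type cells took out CD2+ cells, whereas CD2 was not part of the gate of the Pax5-/- cells. The natural killer markers summed to 9.81 to 20.2 TPM in wild-type and 22.7 to 31.1 TPM in Pax5-/- libraries, with *Nkg7* called higher and *Klrb1c* lower, while *Klra8* and *Gzmb* were listed at 0 in both genotypes and *Ncr1* in Pax5-/- cells. *Nkg7* alone was at 1.71, 5.35 and 5.12 TPM in wild-type and at 17.9 and 22.7 TPM in Pax5-/- libraries, most of the latter sums. Without being called, *Gzma* rose (log2 fold change 2.27, adjusted p = 0.0036 from limma) and *Prf1* fell (−1.8, adjusted p = 0.014 from limma). The part of natural killer cells in the *Cd244* level was not tested.

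*Cd34* was low in every library. Its entry carries a mark that the sources used here do not explain (IMP_OVL). It was measured at 0.145, 1.42 and 0.794 TPM in wild-type and at 1.58 and 2.10 TPM in Pax5-/- libraries, and although the groups did not overlap, the difference did not pass the test (log2 fold change 0.99, 95% interval −0.09 to 2.07, adjusted p = 0.13 from limma). At this level, *Cd34* could not have been called in any case. Without the first wild-type library, in which it was lowest, the log2 fold change was 0.56. The same library was also lowest in myeloid markers, whose sum was 54.5, 404 and 255 TPM in the wild-type and 72.9 and 121 TPM in Pax5-/- libraries, with 0 of these markers called higher and *Elane* called lower. *Mpo*, the granule enzyme of granulocyte-monocyte progenitors, was at 11.1, 34.5 and 19.0 TPM in wild-type and at 37.8 and 42.1 TPM in Pax5-/- libraries (log2 fold change 1.02, adjusted p = 0.081). The part of myeloid cells in the *Cd34* level was not tested.

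Among CD34 family members and selectin ligands, 5 of 10 tested genes rose, 2 fell and 3 did not pass, with a median log2 fold change of 0.73. *Podxl* (podocalyxin), the closest relative of *Cd34*, was at 0.161 TPM or lower in the wild-type and Pax5-/- libraries and was not tested. Of these, 2 were called higher and 1 lower. Among those called higher was *Fut7*, the fucosyltransferase that makes selectin ligands, from 0.925 ± 0.403 TPM (SD, n = 3) in wild-type to 17.3 ± 0.154 TPM (SD, n = 2) in Pax5-/- cells, and *Cd44* was called lower as described above.

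*Procr* was listed at 0 in the 3 wild-type libraries and in the first Pax5-/- library, and at 0.109 TPM in the second. No fold change is given for it. *Proc*, which encodes the ligand protein C, was listed at 0 in every library. *Thbd* (thrombomodulin), the membrane receptor that works with PROCR to activate protein C, was called lower, from 30.5, 35.2 and 40.3 TPM in wild-type to 2.87 and 2.4 TPM in Pax5-/- libraries (log2 fold change −3.51, adjusted p = 1.8e-05). *F2r* (PAR1), the protease receptor through which PROCR signals, was at 0.96, 1.28 and 1.08 TPM and at 1.93 and 2.66 TPM (log2 fold change 0.79, adjusted p = 0.051). Of the 6 tested genes of the protein C pathway, 1 rose, 4 fell and 1 did not pass, with a median log2 fold change of −0.93.

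**Figure D3:**
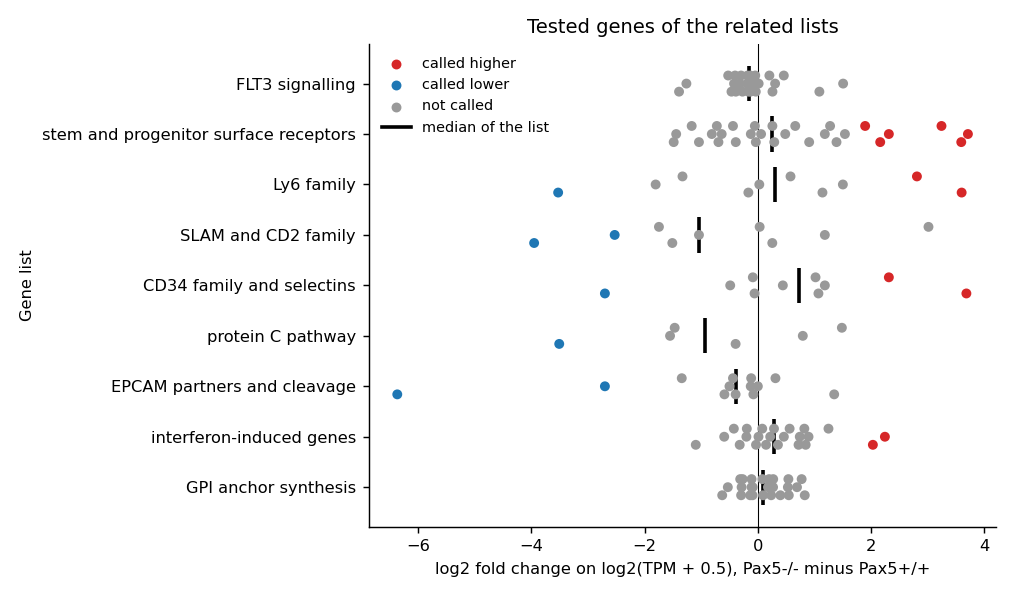
Log2 fold change on the log2(TPM + 0.5) scale between Pax5-/- and Pax5+/+ libraries for each tested gene (points) of the 9 lists related to the receptors, with the median of each list as a black bar; red points were called higher and blue points lower. The genes of FLT3 signalling and GPI anchor synthesis hold no called gene, while *Slamf7*, *Thbd* and *Lef1* are among the called lower genes of the SLAM, protein C and EPCAM lists. Of all 12066 entries tested, 2.71% were called higher and 3.15% lower.

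For other surface receptors of stem cells and progenitors, 11 of 29 tested genes rose, 5 fell and 13 did not pass, with a median log2 fold change of 0.26. Of all entries tested, 15.6% rose and 21.5% fell. In this list, 6 genes were called higher and 0 lower, against 2.71% and 3.15% of all entries. *Fgfr1*, a fibroblast growth factor receptor, was at 1.08, 1.43 and 0.804 TPM in wild-type and 18.1 and 19.1 TPM in Pax5-/- libraries (log2 fold change 3.59, adjusted p = 5.5e-05). *Cd27*, a TNF receptor family member found on multipotent and lymphoid progenitors, rose from 16.5 ± 4.74 TPM (SD, n = 3) in wild-type to 156 ± 15.7 TPM (SD, n = 2) in Pax5-/- cells. The values of *Fgfr1* and *Cd27* did not overlap between the genotypes. In 26.1% of all entries both Pax5-/- libraries lay above every wild-type library. *Cd33* is a sialic acid-binding receptor and *Notch1* is the receptor for T lineage commitment, and both were called higher with log2 fold changes of 2.16 and 1.89. The list also contains *Ctsg*, a granule protease and not a receptor, which rose without being called. *Kit*, which was used in both gates, was at 30.8 TPM in wild-type and 37.2 TPM in Pax5-/- cells on average (log2 fold change 0.29, adjusted p = 0.29).

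Of 11 markers of early stem and multipotent cells, 7 were tested and 1 was called, in the direction higher in Pax5-/- cells. The markers summed to 33 to 40.7 TPM in wild-type and 58 to 58.6 TPM in Pax5-/- libraries. *Tek* was listed at 0 in both Pax5-/- libraries, *Mecom* and *Hlf* were below 0.5 TPM in every library, while *Meis1*, a transcription factor, was at 10.9, 14.1 and 12.9 TPM in wild-type and at 11.5 and 11.6 TPM in Pax5-/- libraries. *Fgd5* rose (log2 fold change 1.95, adjusted p = 0.0017) but stayed under 5 TPM on average, and *Ctnnal1* (−1.41, adjusted p = 0.0024) and *Slamf1* fell without being called. Of the 7 transcripts listed for the common lymphoid progenitor gate, *Ly6d* and *Flt3* were called higher, the first of which was a gate marker. The endothelial markers summed to 284 to 293 TPM in wild-type and 770 to 789 TPM in Pax5-/- libraries, of which *Egfl7* made up 691 and 703 TPM in the latter, while *Pecam1* was at 63.8 to 97.9 TPM in wild-type and at 77 and 84.6 TPM in Pax5-/- libraries. The other 6 endothelial markers were at 1.7 TPM or lower in these libraries, and of them *Kdr* fell (log2 fold change −1.55, adjusted p = 0.0064). T cell markers summed to 9.27 to 13.5 TPM and to 18 to 22.1 TPM, with *Cd247* called higher. *Cd4* rose (log2 fold change 2.38, adjusted p = 0.00086 from limma) and *Cd5* fell (−1.38, adjusted p = 0.0066 from limma), both without being called. *Cd3e*, *Cd8b1* and *Themis* were listed at 0 in Pax5-/- cells and were at 0.432 TPM or lower in wild-type libraries. Erythroid markers without *Hbb-b2*, which has no mm9 entry, summed to 75 to 192 TPM and to 10.8 to 61 TPM. Mature B and plasma cell markers without *Igj* summed to 135 to 177 TPM and to 110 to 116 TPM, with *Sdc1* called lower. *Igj*, which was called higher, was at 0.542, 0.768 and 0.175 TPM in wild-type and at 545 and 695 TPM in Pax5-/- libraries. *Ms4a1* (log2 fold change −2.75, adjusted p = 0.00036 from limma) and *Ighd* (−0.91, adjusted p = 0.045 from limma) fell without being called.

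**Figure D4:**
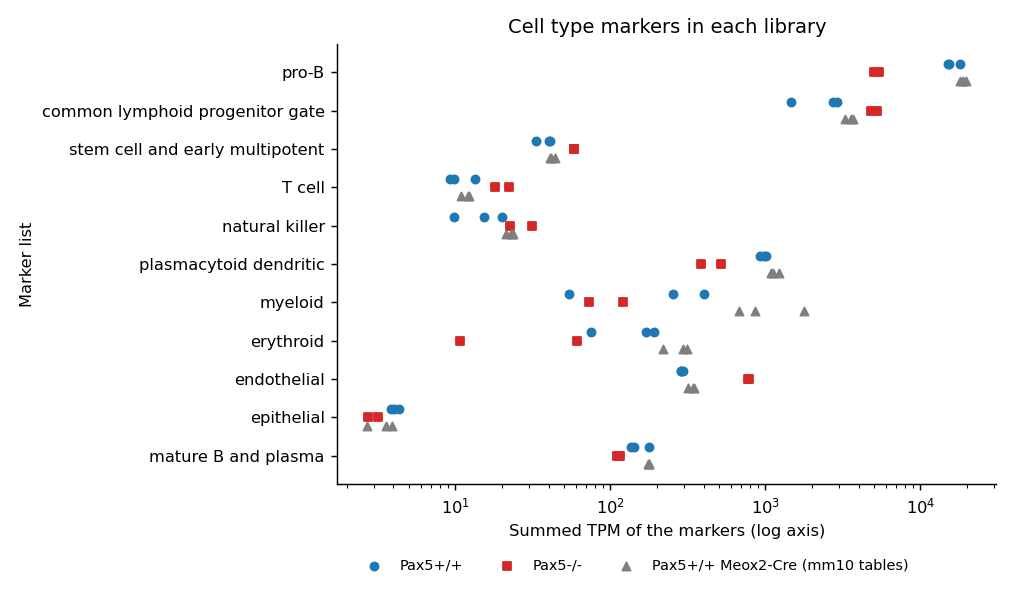
Summed TPM (log axis) of the markers of 11 cell types in each library, over the markers found in the tables of both builds (*Igj*, *Jchain*, *Hbb-b2* and *Ly6g* are therefore left out), with circles for 3 Pax5+/+, squares for 2 Pax5-/- and triangles for 3 Pax5+/+ Meox2-Cre libraries, the last from tables of another genome build. The myeloid sums overlap between Pax5+/+ (54.5 to 404 TPM) and Pax5-/- libraries (72.9 to 121 TPM), the pro-B sums are lower and the endothelial sums higher in the Pax5-/- libraries.

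To find the genes whose pattern over the 5 libraries is most like that of each receptor, the Euclidean distance between the centred log2(TPM + 0.5) values was taken over all entries tested. The distance grows with the size of a change, so genes of large change have no very close neighbours. *Spns2*, a sphingosine-1-phosphate transporter, was nearest to *Flt3* (distance 0.23) at 2.38, 4.49 and 3.31 TPM in wild-type and 89 and 88.4 TPM in Pax5-/- libraries, followed by *Ociad2* (0.35). *Dyrk4* (0.47) and *Cxcr3*, a chemokine receptor (0.55), were nearest to *Epcam*, and *Cxcr3* was likewise higher in the second Pax5-/- library, at 30.9 and 44.4 TPM. *Pdia5* (0.27) and *Dkkl1* (0.28) were nearest to *Ly6a*, *Mrpl15* (0.06) and *Zfp444* (0.06) to *Ly6e*, and *Dhx40* (0.03) and *Rac1* (0.06) to *Cd48*. *Mpo* (0.25) and *Ndrg1* (0.30) were nearest to *Cd34* and shared its low value in the first wild-type library. With 5 libraries and 12065 entries compared, close patterns occur readily, and the distances are given as a description.

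**Figure D5:**
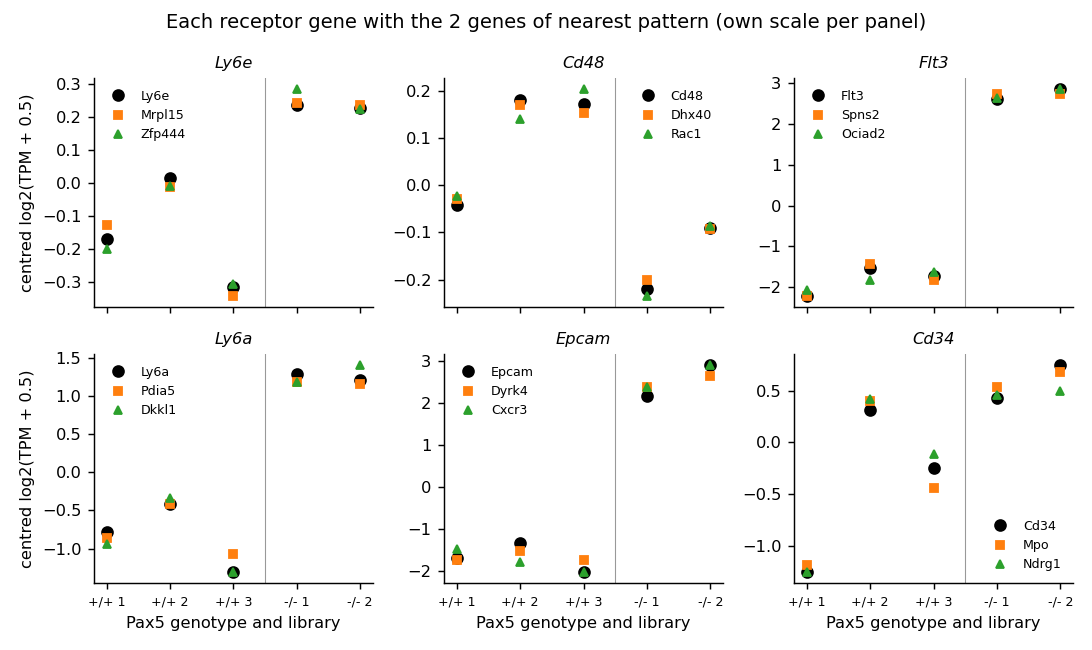
Centred log2(TPM + 0.5) values over the 3 Pax5+/+ and 2 Pax5-/- libraries for each tested receptor gene (black circles) and the 2 genes of smallest Euclidean distance (orange squares and green triangles), each panel on its own scale. *Cd34*, *Mpo* and *Ndrg1* share a low value in the first Pax5+/+ library, and *Epcam* and *Cxcr3* are higher in the second than in the first Pax5-/- library.

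The Pax5+/+ Meox2-Cre libraries were processed on another genome build with other software, and their values are therefore given beside the others without a test. *Flt3* was at 16.6, 10.3 and 11.3 TPM, *Ly6a* at 9.75, 12.1 and 8.32 TPM and *Epcam* at 2.60, 1.79 and 2.02 TPM. For *Flt3* the lowest Meox2-Cre value was below, and for *Ly6a* the highest was above, the range of the wild-type libraries, and all were far below the Pax5-/- values. *Ly6e* was at 2312, 2138 and 2375 TPM, *Cd48* at 92.4, 89.3 and 85.4 TPM and *Cd34* at 0.727, 0.705 and 0.486 TPM. *Procr* was listed at 0 in the first and at 0.0768 and 0.077 TPM in the other libraries. The order of the means was as in the wild-type libraries, but the values of *Flt3* and *Ly6a* overlapped. Over the markers found in both kinds of table, the sum was 673 to 1771 TPM for the myeloid and 218 to 313 TPM for the erythroid list. The erythroid sum leaves out *Hbb-b2*, found only in the mm10 tables, which was at 2705.4, 3474.5 and 2314.5 TPM in the Meox2-Cre libraries. The part of myeloid and erythroid cells in the receptor levels was not tested.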

How the data were processed

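RNA-seq of poly(A) RNA from sorted bone marrow pro-B cells was examined in 8 libraries. The authors aligned reads of the 5 wild-type and Pax5-/- libraries to mm9 (TopHat 1.4.1a) and those of the 3 Meox2-Cre libraries to mm10 (STAR 2.4.2a), and counted them on refGene annotations with featureCounts 1.5.0, without strand. The authors deposited TPM, whose sum is the same in every library, so depth and its error are not known from these tables. The study tested read counts, whereas limma 3.58.1 in R 4.3.3 (eBayes with an intensity trend) was used here on log2(TPM + 0.5), for entries with a mean above 1 TPM in a genotype, with Benjamini-Hochberg adjustment over all 12066 entries. Thresholds for calls were those of the study (adjusted p-value below 0.05, more than 3-fold, above 5 TPM in a genotype), without immunoglobulin and T cell receptor entries. The fit was tested on simulated data. Groups were taken from the sample labels, and replicate numbers follow the order of the samples and are names only. Pearson's r between the libraries, taken over genes on the log2 scale, was 0.991 to 0.993 within wild-type, 0.996 within Pax5-/- and 0.968 to 0.974 between genotypes, and no libraries were identical. The receptor genes, related lists and cell type markers were chosen with earlier results of these data known. Named are the receptors, sort markers, called genes of each list (at most 4 in each direction), direct binding partners, the 2 genes of nearest pattern for each receptor, and genes said to be chosen after values were seen, and some genes that this rule names are not reported here. Alternatives were pseudocounts of 0.1 and 1, no filter or one at 5 TPM, eBayes without trend or robust, median ratio rescaling, quantile normalization, removal of immunoglobulin and T cell receptor entries, a 2-fold threshold, the treat test against 3-fold, and leaving out each library in turn. ChIP-seq and tumour samples were not used here. Software for tables and figures was Python 3.11.15 with pandas 2.3.3, numpy 2.4.6 and matplotlib 3.10.9. Coordinates are from GENCODE on mm9, and promoters from RefSeq on GRCm38.p6.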

Additional observations from a re-analysis of the deposited data

How the results depend on the processing

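The calls of *Flt3* and *Epcam* held under each alternative tried, and that of *Ly6a* under each except the limma treat test against 3-fold, where 2 of the receptor genes were called higher. The count of receptor genes called higher was otherwise 3, and that called lower was 0 throughout. The log2 fold change of *Ly6e* lost its adjusted p-value below 0.05 without a filter on low values (0.39, adjusted p = 0.108) and without the intensity trend (0.39, adjusted p = 0.0875), with median ratio rescaling (0.50, adjusted p = 0.0999) and with quantile normalization (0.0796, adjusted p = 0.65), and it was between 0.31 and 0.47 when each library was left out in turn, with adjusted p-values from 0.0225 to 0.251. The cause was not tested. With a library left out, the log2 fold change was 4.36 to 4.70 for *Flt3*, 3.84 to 4.57 for *Epcam*, 1.85 to 2.30 for *Ly6a*, 0.56 to 1.35 for *Cd34* and −0.33 to −0.19 for *Cd48*, and 284 to 336 genes were called higher and 306 to 461 lower. A fit with a lone Pax5-/- library assumes that it varies like the others. A 2-fold threshold called 630 genes higher and 753 lower, against 118 and 153 for the treat test. The median log2 fold change of all entries was −0.12 as deposited, −0.003 with median ratio rescaling and −0.01 with quantile normalization. *Procr* was not tested and *Cd34* could not be fitted at a filter of 5 TPM. No paired analysis was possible because the replicate numbers are names given in the order of the samples and pair no libraries. The depth behind levels near 0, such as those of *Procr* and *Cd34*, is unknown.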
